A study of Homo sapiens with 4 samples.

Results

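The terminal 16q24 block is the end of the long arm of human chromosome 16, taken as every listed ATAC-seq summit from 84000000 to 90354753 on the hg19 genome. It held 10652 of the 371521 summits of the peak list (2.87%) in 3456 of its 197823 regions (1.75%). A summit is a point of highest signal and 1 line of the list, and a region is a distinct pair of start and end, which can hold several summits. The members were chosen by where summits were dense in this same list, so the block's density, its heights and its widths are given as descriptions with no test.

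The study used T47D-MTVL cells, which derive from the T47D breast cancer line and carry 1 integrated luciferase reporter under the MMTV promoter. The multiH1sh cells (2 samples, knock-down) expressed an shRNA against several variants of linker histone H1, and the RDsh cells (2 samples, control) expressed a random shRNA. All 4 samples therefore carry the reporter and an shRNA, and 75000 cells were harvested for each. The question was whether DNA accessibility changed with the loss of H1. The single list used here gives no value per sample. The list is named as differential against RDsh, and whether its reads come from the multiH1sh samples, the RDsh samples or both is not stated. Folds and pileups below are therefore those of the list, and not of either group. Its track line names RDsh and a second name that the labels do not use, and that this second name stands for the multiH1sh cells is an assumption. No value below has a spread between replicates or tests multiH1sh against RDsh, and the depth of each sample is not given here.

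Linker histone H1 sits on the nucleosome where the DNA enters and leaves, and helps to fold nucleosome arrays into compact chromatin. In ATAC-seq the Tn5 transposase inserts adapters into DNA that is not wrapped or covered, so open promoters and enhancers, and the linkers between accessible nucleosomes, gather reads. The 16q24 block holds IRF8, a transcription factor of the interferon regulatory family that is needed for monocytes and dendritic cells. Further along lie FOXF1, FOXC2 and FOXL1, a cluster of forkhead transcription factors known from the development of lung and gut mesenchyme, of lymphatic vessels and of the intestine. Neither group is known as a marker of luminal breast cells, and no expression was measured here.

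The start sequences of 4 genes that mark places in the block show the kinds of sequence found there. IRF8 and FENDRR mark the sparse middle of the block. FENDRR is a long noncoding RNA next to FOXF1 in RefSeq's gene order. COX4I1, a subunit of cytochrome c oxidase, is the nearest coding gene before IRF8 in that order, and GSE1, which encodes a coiled-coil protein, is the 5th coding gene before it. Both lie on the side of the densest stretch described below. The sequences are RefSeq's, of build GRCh38.p14, each 300 bases with 250 before the start and 50 after it. IRF8, COX4I1 and GSE1 are on the plus strand and FENDRR on the minus strand. Capitals mark the GC box GGGCGG, searched on both strands.
IRF8: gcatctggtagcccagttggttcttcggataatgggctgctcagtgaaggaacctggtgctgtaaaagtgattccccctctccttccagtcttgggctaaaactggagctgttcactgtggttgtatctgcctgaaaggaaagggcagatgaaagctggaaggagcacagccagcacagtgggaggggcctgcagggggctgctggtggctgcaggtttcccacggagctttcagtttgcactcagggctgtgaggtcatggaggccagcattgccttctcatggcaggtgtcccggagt
COX4I1: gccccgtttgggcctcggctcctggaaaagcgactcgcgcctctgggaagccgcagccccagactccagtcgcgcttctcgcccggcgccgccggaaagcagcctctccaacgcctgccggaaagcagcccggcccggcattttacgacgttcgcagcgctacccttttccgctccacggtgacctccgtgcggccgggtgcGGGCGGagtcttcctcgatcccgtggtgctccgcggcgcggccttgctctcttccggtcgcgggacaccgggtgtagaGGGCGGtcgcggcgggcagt
GSE1: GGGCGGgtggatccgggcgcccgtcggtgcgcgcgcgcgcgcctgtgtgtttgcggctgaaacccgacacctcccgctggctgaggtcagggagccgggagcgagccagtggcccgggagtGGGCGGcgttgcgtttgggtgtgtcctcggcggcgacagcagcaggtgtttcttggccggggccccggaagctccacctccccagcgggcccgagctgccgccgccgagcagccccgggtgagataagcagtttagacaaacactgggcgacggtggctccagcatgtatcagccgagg
FENDRR: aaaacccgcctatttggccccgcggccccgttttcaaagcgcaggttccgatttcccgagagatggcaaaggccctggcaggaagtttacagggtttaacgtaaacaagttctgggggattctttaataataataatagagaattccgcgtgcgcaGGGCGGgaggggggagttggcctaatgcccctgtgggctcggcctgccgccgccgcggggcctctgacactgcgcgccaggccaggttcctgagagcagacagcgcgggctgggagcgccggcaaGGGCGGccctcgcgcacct

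The IRF8 sequence, 1 of 2 starts in the table, held 3 CpG dinucleotides and no GC box, and 56.3% of its bases were G or C. COX4I1 held 42 CpG and 2 GC boxes, GSE1 held 34 CpG and 2 GC boxes, and FENDRR held 26 CpG and 2 GC boxes. Of 60 coding genes from IRF8 to the end of the arm in RefSeq's order, 46 were matched, with 61 start sequences. Their median was 36 CpG and 72.3% G or C, against 21 CpG and 62.3% over the 22199 start sequences of all coding genes. A GC box occurred in 47 of the 61 (77.0%), against 56.3% of those of all coding genes. The TATA box TATAAA, searched on both strands, occurred in 2 of the 61 (3.28%), against 9.47%. Coding genes at the end of 16q thus had higher medians of G, C and CpG around their starts than all coding genes. These sequences could not be placed on the list, which is of hg19, so which of them lay under a listed region was not analysed here.

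Summits were 7.05 times as dense in the block as in the rest of chromosome 16, at 1676 and 238 per Mb. The rest of the chromosome is its listed span of 72.8 Mb, with the centromere gap left out. It includes the terminal 16p13.3 block, another dense end, which held 7744 of its 17323 summits and 2485 of its 8236 regions. All comparisons with the rest of chromosome 16 below are thus in part with that dense end. The block made up 8.03% of the 2 lengths together and held 38.1% of the chromosome's 27975 summits (95% Wilson interval 37.5 to 38.6%, counting error only). Its regions covered 31.6% of its length, against 4.66% in the rest. The excess was smaller when each region was counted once, at 544 and 113 regions per Mb, a ratio of 4.81. Regions in the block were thus both more frequent and richer in summits, with 3.08 summits per region in the block and 2.10 in the rest.

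At the proximal border the list thickened over about 2 windows of 100 kb and thinned again inside the block. The 8 windows from 83000001 to 83800000 held between 2 and 13 summits each, and those from 83800001 and 83900001 held 36 and 157. The first window of the block held 191, and those that followed held 37, 120 and 78. Outside the block, the stretch from 81000001 to 82000000 held 569 summits. One region, from 83998583 to 84000438, lay across the border. Its last summit outside had a fold of 5.65, and its first 3 inside had folds of 6.98, 7.65 and 10.97. Fold is the authors' enrichment of the summit's signal over background. At the distal end the last region lay from 90235196 to 90236467, after a stretch of 73705 bp with none, and the remaining 118287 bp to the end of the block were empty. Why the list ends there was not tested.

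Inside the block the summits formed 2 dense stretches around a sparse saddle, and IRF8 and the FOX genes lay in the saddle. The following stretches were drawn after the counts were seen. From 85200001 to 85800000 the first dense stretch held 2401 summits, or 4002 per Mb, and regions covered 73.5% of it. The saddle from 85800001 to 87600000 held 749 summits per Mb over 14.1% covered length. The second dense stretch, from 87600001 to 90000000, held 5603 summits, which is 52.6% of the block, at 2335 per Mb and 44.4% covered. Before the first dense stretch there were 897.5 summits per Mb, and after the second there were 626. The length after the second includes the 118287 bp without a region at the end of the block.

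The number of regions varied much less than the number of summits. Regions with a summit in a stretch numbered 613 per Mb in the first dense stretch and 633 in the second, against 488 in the saddle and 501 in the proximal stretch. Between these 4 stretches the summits per region differed more, with 6.52 and 3.69 in the dense stretches, against 1.54 in the saddle and 1.79 in the proximal stretch. In the first dense stretch 62.8% of regions had 2 or more summits, and in the saddle 26.3% did. Uncovered stretches between regions had a median of 245 bp in the first dense stretch, against 681 bp in the saddle. The median region width was 460.5 bp in the first dense stretch and 324.5 bp in the second, against 208 bp in the saddle. In the second dense stretch 50.6% of regions still had 1 summit, and 41.4% of its summits lay in regions of 2 kb or more, against 65.0% (65.01%) in the first. The distal end, whose length includes the empty end of the block, had 254 regions per Mb and 2.47 summits per region.

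**Figure D1:**
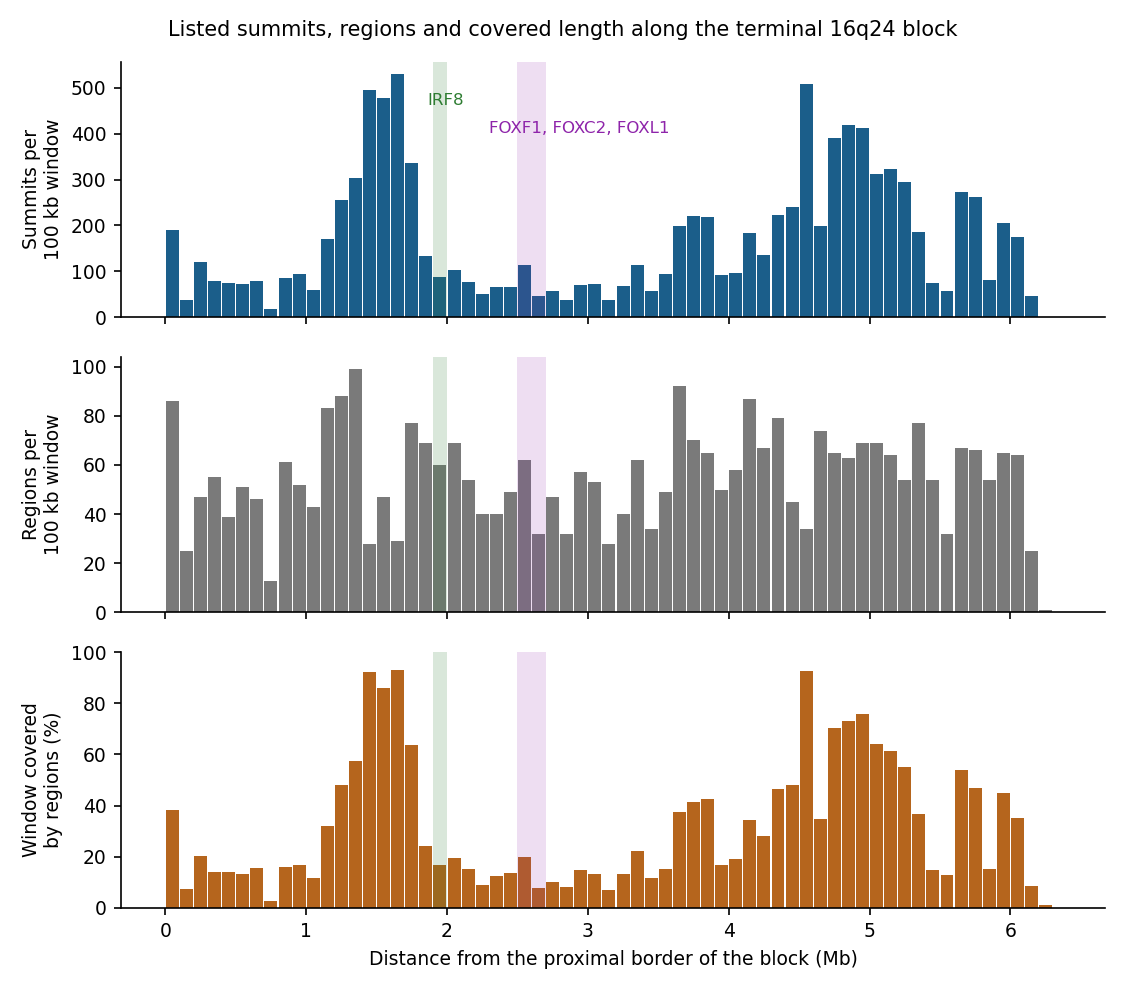
Summits (top), regions (middle) and covered length in percent (bottom) in 64 windows of 100 kb, by distance from the proximal border in Mb; green shading marks the IRF8 window and purple the 2 windows of the FOX genes. Summits peak at 531 in a window of the first dense stretch, whereas regions stay at or below 99 in every window and are few in the most covered windows.

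The 10 fullest windows of 100 kb all lay in the dense stretches. The window from 85600001 held 531 summits in 29 regions, which covered 93.2% of it. Next came the window from 88500001, with 509 summits in 34 regions over 92.6% of its length, and that from 85400001, with 496 in 28 regions over 92.2%. In these 3 windows nearly the whole sequence was inside a listed region. The window from 85500001 held 478 summits and covered 86.1%. The other 6, starting at 88800001, 88900001, 88700001, 85700001, 89100001 and 89000001, held 419, 412, 391, 336, 323 and 313 summits. Over all 64 windows the median was 108 summits and the median covered length 19.6%. The 6 densest windows held 26.7% of the block's summits (95% Wilson interval 25.9 to 27.6%) but 7.81% of its regions. The interval covers counting error only and does not allow for picking the windows by these same counts.

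At the other extreme, the last 2 windows held 1 and 0 summits, and the last is cut short at the chromosome end. The window from 84700001 held 17, that from 84100001 held 37, and those from 86800001 and 87100001 held 38 each. The longest empty stretch was the end of the block itself, given above. The 5 longest between 2 regions were 73705 bp from 90161491, 50269 bp from 88389325, 28803 bp from 86286533, 27571 bp from 90114785 and 24700 bp from 87134514. The second of these lay inside the second dense stretch, shortly before its fullest window, so a long stretch without a listed region also occurred there. Whether the hg19 genome holds known sequence at that stretch was not analysed here.

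Windows with more summits tended to have higher ones. Across the 63 windows with a summit, the number of summits and their median fold had a Pearson r of 0.91 and a Spearman rho of 0.83, given as a description, since all windows come from 1 list with 1 background and neighbouring windows can share a region. The median fold was 7.98 in the first dense stretch and 6.32 in the second, against 4.99 in the saddle and 5.32 in the proximal stretch. The distal end had 5.65, above the saddle and the proximal stretch. It had the fewest summits per Mb over a length that is partly empty. Its window from 90000001 held 174 of its 222 summits, also at a median fold of 5.65. The fold converts to a pileup of whole reads over a background of 2.01 reads that is the same along the genome. A fold here thus ranks a place by its own reads, and no local value of RDsh enters its background. Of the block's summits 4435 had 20 reads or more (41.6%, 95% Wilson interval 40.7 to 42.6%, counting error only). The share was 26.5% over all listed summits and 27.4% in the rest of chromosome 16. By stretch this share was 66.3% in the first dense stretch and 41.9% in the second, against 15.5% in the saddle, 19.96% in the proximal stretch and 31.5% in the distal end (25.8 to 37.9%, 222 summits). The saddle and the proximal stretch were thus below the list as a whole.

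**Figure D2:**
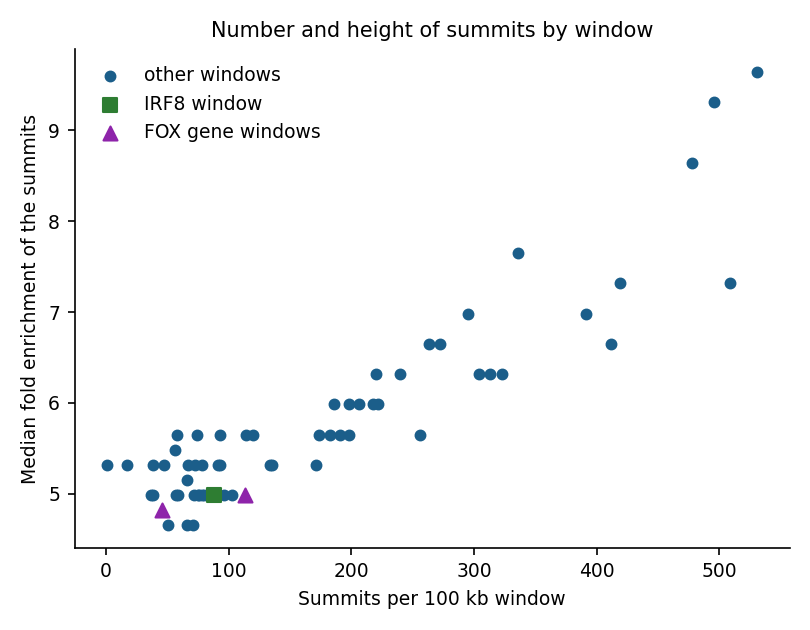
Median fold enrichment of the summits (vertical axis) against the number of summits (horizontal axis) in 63 windows of 100 kb of the block, each point 1 window. The IRF8 window (square, 88 summits, median 4.99) and the FOX windows (triangles, 113 and 46 summits, medians 4.99 and 4.82) have medians below 5 (4.99 or less), and the first FOX window is near the block's median of 108 summits.

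Very high summits were few and lay mostly in wide regions. The block held 130 summits of 50 reads or more (1.22%), against 1.44% of all listed summits and 1.41% in the rest of chromosome 16. These 130 were in 50 regions. The first dense stretch held 68 of them and 22.5% of all the block's summits, the second held 55 and 52.6%, and 7 lay elsewhere. Regions of 2 kb or more held 109 of them and 37.6% of all the block's summits. Width and height come from the same pileup, and the matching count over the whole list was not analysed here. The share of summits of 50 reads or more in the block was thus slightly below that of the whole list. The share at 20 reads or more was above it. Only 12 summits, in 4 regions, reached 100 reads, and the highest had 176.

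The 10 regions with the highest fold included sharp and broad ones. The highest, from 89710976 to 89715053, had 17 summits with a median fold of 6.98, of which 2 neighbours reached 58.9 and 48.2, and no other exceeded 10.3. In the next, from 89973246 to 89975512, 5 of 8 summits in a row had folds from 36.9 to 51.5 and the outer 3 had 5.65 to 8.64. The third, from 88583649 to 88589028, climbed over its 28 summits to 38.2 near its middle, and 27 of them had 20 reads or more. The next were from 88612713 to 88614625 (37.6), 89041103 to 89047363 (32.9), 89668951 to 89672137 (30.3) and 89685351 to 89686537 (28.3). The last 3 lay in the first dense stretch, from 85643519 to 85653626 (27.6), 85654049 to 85656063 (27.3) and 85416480 to 85422729 (26.9). The 7 highest were thus all in the second dense stretch, although the first had the higher median fold. The last place was shared at the same fold with the region from 85451706 to 85460878.

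Most wide regions lay in the second dense stretch, but most of the very widest in the first. Regions of 2 kb or more numbered 184 (5.32%), against 1.51% of all listed regions and 2.25% in the rest of chromosome 16. They held 37.6% of the block's summits. Of the 184, 58 lay in the first dense stretch with 1561 summits and 116 in the second with 2318, where they made up 15.8% and 7.63% of the regions. Of the 10 widest, 7 lay in the first dense stretch and 3 in the second. The widest ran from 85656885 to 85686796, over 29912 bp with 164 summits, whose folds ranged from 4.32 to 23.6 with a median of 11.5. In it 157 summits (95.7%) had 20 reads or more, so signal was high along its whole length and not at 1 point. The next were from 85513014 to 85527095 (14082 bp, 79 summits), 85490330 to 85502585 (12256 bp, 69), 89113084 to 89125276 (12193 bp, 68) and 85402397 to 85414230 (11834 bp, 68). Then came those from 88494746 to 88505614 (10869 bp), 85466897 to 85477578 (10682 bp), 85643519 to 85653626 (10108 bp), 85451706 to 85460878 (9173 bp) and 88945300 to 88953376 (8077 bp).

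**Figure D3:**
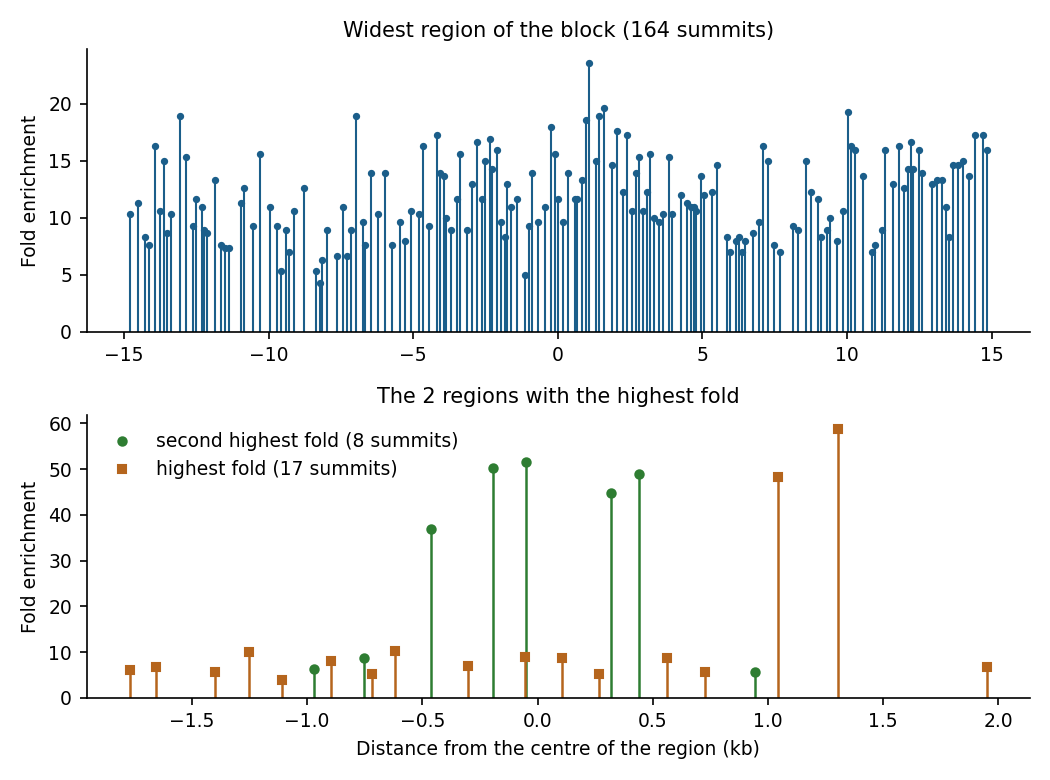
Fold enrichment of each summit (vertical axis) against its distance in kb from the centre of its region; each line with a point is 1 summit. The widest region (top) has 164 summits from 4.32 to 23.6, and of the 2 regions with the highest fold (bottom) one has 2 tall summits up to 58.9 and the other 5 from 36.9 to 51.5.

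Within regions the summits stood at distances that differed little between the block and the rest of the chromosome. Inside the block they were somewhat longer in the dense stretches than in the other stretches. Neighbouring summits of 1 region lay a median of 156 bp apart in the block (25th percentile 116, 75th percentile 213, 7196 distances), against 157 bp in the rest of chromosome 16. The first and second dense stretches both had 158 bp, against 146 bp in the saddle and 147 bp in the proximal stretch. The distal end had 142.5 bp, over 132 distances. In the 10 widest regions there was 1 summit for every 164 to 201 bp, and the median over the 184 wide regions was 179 bp. These last values are width per summit and not distances between summits. The most common distances, from 100 to 124 bp, were shorter, and the whole list had the same modal class and the same median of 156 bp. As background, the DNA of a nucleosome and its linker has a length of the order of the width per summit. Its part in the spacing was not tested. Neighbours in different regions lay a median of 666 bp apart in the block and 994 bp in the rest of chromosome 16.

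**Figure D4:**
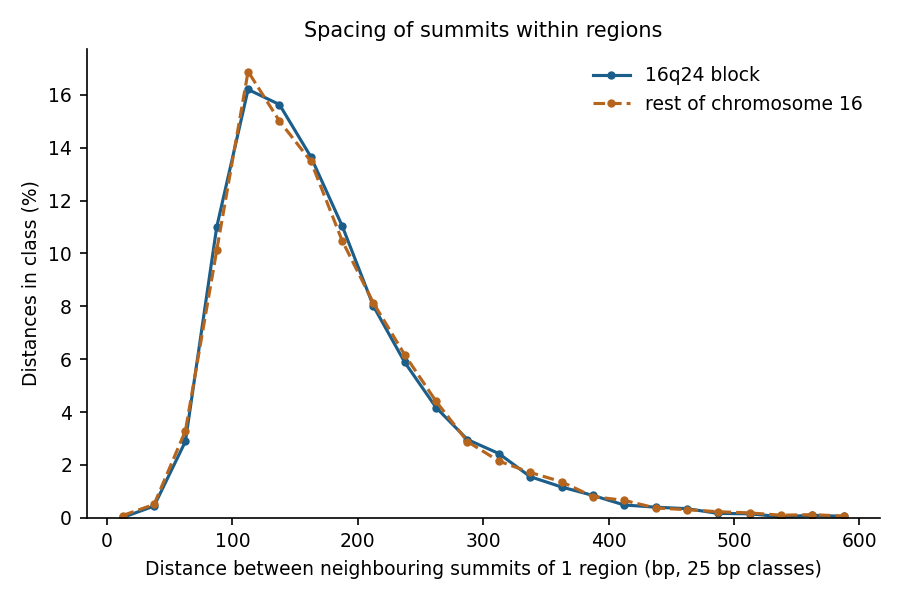
Share in percent of distances between neighbouring summits of the same region, in classes of 25 bp, for the 16q24 block (solid line) and the rest of chromosome 16 (dashed line). Both lines peak in the class from 100 to 124 bp, with 16.2% in the block and 16.9% in the rest, and follow each other closely.

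At equal width, regions of the block had the same median height as regions elsewhere on the chromosome, for widths under 1 kb. The highest summit of a region had a median fold of 4.65 in the block and 4.65 in the rest for regions under 200 bp, 5.32 and 5.32 from 200 to under 400 bp, and 6.98 and 6.98 from 400 to under 1000 bp. From 1000 to under 2000 bp the medians were 9.64 and 8.98, and from 2000 to under 10000 bp they were 12.6 and 11.0 (10.97). Regions of 10 kb or more ran the other way, with a median of 22.1 over 8 regions of the block and 72.8 over 2 regions of the rest. Regions with 1 summit numbered 2002 in the block, with a median fold of 4.65 there and in the rest. Regions with 2 or more numbered 1454 (42.1%), against 28.2% of all listed regions. Width and height come from the same pileup, so these values describe the regions and separate neither from the other. With summits in regions of 2 kb or more left out, 26.4% of the block's summits had 20 reads or more. The 95% Wilson interval was 25.4 to 27.5%, counting error only, and the share in the rest of chromosome 16 was 21.7%.

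**Figure D5:**
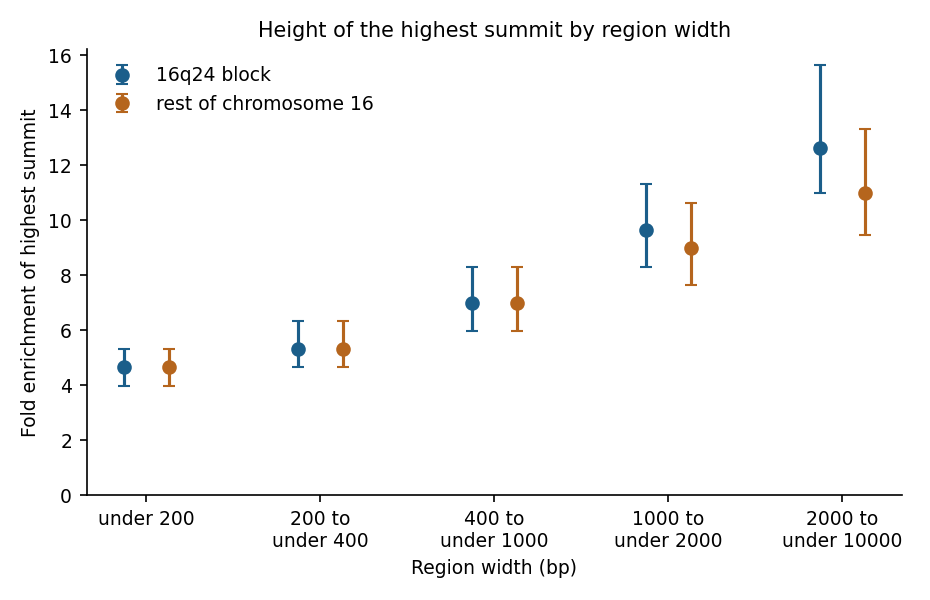
Fold enrichment of the highest summit of a region (vertical axis; point, median; bars, 25th to 75th percentile over regions) by region width in bp, for the 16q24 block and the rest of chromosome 16. Medians coincide under 1000 bp and are 12.6 in the block and 11.0 in the rest from 2000 to under 10000 bp.

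The place of IRF8, at 85.93 Mb, lay just past the distal edge of the first dense stretch. The window from 85900001 to 86000000 held 88 summits in 60 regions over 16.8% of its length, against a block median of 108. The window directly before it held 134 summits, and the one before that, the last of the first dense stretch, held 336. The IRF8 window had a median fold of 4.99 and a highest fold of 11.3 (33 reads). Its widest region had 888 bp, and 8 of its summits (9.09%) had 20 reads or more. In the 10 kb around 85.93 Mb there were 6 regions with 7 summits. Of these 1, from 85932677 to 85932925, reached 21 reads (fold 7.31), and the others had at most 19. At this place, the list thus held regions of 249 bp or less. The 7 summits had a median fold of 5.32, equal to the 5.32 of all listed summits and above the 4.99 of the saddle.

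The forkhead genes, from 86.54 to 86.62 Mb, lay in a part of the saddle with more summits. The median fold over this span was 5.32, equal to that of all listed summits, against 4.99 in the saddle. Over these 80 kb there were 103 summits in 51 regions, or 1288 per Mb against 749 in the saddle as a whole, covering 23.6% of the length, and 35 of the 78 spans of 80 kb that tile the block held more. Summits gathered at the start of the span. The region from 86542743 to 86545364, at 86.54 Mb where the FOX cluster begins, was 2622 bp wide with 19 summits and was the widest of the saddle. Its median fold was 5.98 and its highest 10.6 (31 reads), the lowest being 3.66, and its summits lay a median of 110 bp apart. Further regions in the span reached 30 reads from 86564942 to 86565725, 29 from 86554524 to 86554823, 27 from 86601396 to 86602148 and 26 from 86612402 to 86613241. Over the whole span 17 summits (16.5%) had 20 reads or more, against 15.5% in the saddle, and the highest had 31. The 2 windows that hold it had 113 and 46 summits.

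Beside 3 other dense chromosome ends, picked for comparison with their densities known, the block was close in density, covered length and median fold and differed more in its widest and highest regions. It had 1676 summits per Mb, against 1785 in the terminal 8q24.3 block, 1475 in the distal 9q33-q34 block and 1549 in the terminal 16p13.3 block. Regions covered 31.6% of its length, against 33.7%, 27.7% and 29.3% in that order. Its median fold was 6.32, against 6.32, 5.98 and 5.98, and 41.6% of its summits had 20 reads or more, against 43.7%, 36.8% and 33.9%. Of the 4 it had the smallest share of regions with 2 or more summits, at 42.1% against 48.2%, 45.5% and 47.5%. It had the largest share of summits of 50 reads or more, at 1.22% against 0.907%, 0.513% and 0.400%. It did not have the highest summit, however, with a maximum fold of 58.9 against 103, 45.2 and 381. Regions of 10 kb or more numbered 8 in the block, against 10, 8 and 0. These counts are over unlike lengths, of 6.35 Mb in the block and 6.36, 15.2 and 5 Mb in the others. The widest region of the block had 29912 bp, against 27620, 23169 and 7629 bp. The distance between summits of 1 region, at 156 bp, was 158, 154 and 157 bp in the others. With no value per sample, none of these differences could be tested against replicates.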

How the data were processed

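ATAC-seq libraries were made from 75000 cells per sample for 2 multiH1sh and 2 RDsh samples, per the labels. Per the submitters' processing notes, Bowtie 1.1.2, MACS2 and the hg19 genome were used. The sources used here do not give the MACS2 options, or whether duplicates were removed and replicates pooled. The authors deposited 1 peak list, with a fold enrichment (a ratio of signal to background) and a −log10 p-value for each summit.

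The whole number of reads over a summit, its pileup, was solved from the 2 values together. The fold was read as the pileup plus 1 over the background plus 1, and the p-value as the Poisson chance of more reads than the pileup. The solution gave a background of 2.01 reads. Of the block's 10652 summits 10651 were solved from both values, and the other from its fold and this background, with whole reads in each case (tolerance 0.02). The solver was tested on simulated data of 500 lines and recovered 100% of them. The lines were made with the same 2 formulas, so this checks the solving and not whether the list follows the formulas. The lowest listed pileup is 10 reads.

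Windows of 100 kb were counted from the border, and a region belongs to the window of its highest summit. Regions that cross a border were taken at full width, and 1 does so at 84 Mb. The centromere gap is the longest stretch of the chromosome without a region. The rule for named items took the 10 windows with the most and the 5 with the fewest summits (6 with a tie), the 10 widest and 10 highest regions, the 5 longest empty stretches and the places of the named genes. The place of each gene is the one given with the rule that defines the block. The members and lists were chosen with earlier results of these data known. The gene and start tables are of GRCh38 and gave names, order and sequence only. Genes by promoter or body were not analysed here. Intervals cover counting error only and treat each summit as independent. Neighbouring summits share reads and PCR copies were not told apart by molecular identifiers, so the intervals are too narrow to separate parts. Counts and medians were computed with pandas 2.3.3, numpy 2.4.6 and scipy 1.17.1 under Python 3.11.15.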

Additional observations from a re-analysis of the deposited data

How the results depend on the processing

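Counting each region 1 time instead of each summit turned the 1676 summits per Mb of the block into 544, and merging regions within 100 bp into 535. The top 50% of all summits by fold left 1093 per Mb, and a minimum of 20 reads left 698, each lower by construction. The ratio to the rest of chromosome 16, 7.05, was 4.81 by region, 4.81 by merged region, 8.76 in the top 50% by fold, 10.7 at a minimum of 20 reads, 7.44 with the block started at 85 Mb and 6.23 with it started at 83 Mb. It was 11.9 without the first 5 Mb of the short arm, an alternative chosen after the data were seen. The densest 10% of windows, with 26.7% of the block's summits, had 15.5% by region, 35.3% in the top 50% by fold, 43.8% at a minimum of 20 reads, 29.1% in windows of 50 kb, 25.1% in windows of 200 kb and 25.8% without the widest region. The median fold of 6.32 became 5.65 by region, taken at its highest summit, and 5.65 without regions of 2 kb or more. The median distance between neighbouring summits, 206 bp, was 156 bp within regions, 666 bp between regions and 248 bp at a minimum of 20 reads. The IRF8 window's 88 summits became 28 in the top 50% by fold and 8 at a minimum of 20 reads. The 159 summits of the FOX windows became 94 by region, 63 in the top 50% by fold and 21 at a minimum of 20 reads. Also chosen after the data were seen, the share at 20 reads or more (41.6%) was 26.4% without regions of 2 kb or more and 32.03% by region. Beyond what follows from the construction, the cause was not tested.

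No paired analysis was possible because values per sample are not part of the list, and no replicate was left out for the same reason. Summits under 10 reads are not listed, so an empty stretch does not show closed chromatin. Mappability of the empty stretches, the distal end among them, and the copy number of 16q in these cells were not analysed here.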
